A study of Mus musculus with 8 samples.

Results

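The subunits of oxidative phosphorylation were followed in RNA sequencing of extracellular vesicles (EVs) labelled as cardiac, by respiratory complex and by the genome that encodes them. Members were taken by gene symbol from the mRNA table: the mitochondrially encoded mt-Nd, mt-Co, mt-Cytb and mt-Atp genes, and the nuclear Nduf, Sdh, Uqcr, Cox4 to Cox8 and Atp5 genes. This gave 98 of 22481 mRNA symbols, of which 13 are mitochondrially and 85 nuclear-encoded. The choice used symbols alone, but it was made with earlier results of these data known. A symbol is not a function: Cox7a2l (supercomplex assembly), Atp5sl (complex I assembly), Atp5s (a coupling factor of ATP synthase) and the pseudogene Atp5l-ps1 are members by name only, and Ndufa4 is now counted with cytochrome c oxidase.

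The libraries are labelled as cardiac EVs of 4 IR mice and 4 sham mice, all C57BL/6J aged 10 weeks, with 1 library per mouse. The IR mice had 45 min of coronary ischemia and 24 h of reperfusion, and the sham mice the operation without it. By the study's methods, the left ventricle was digested with collagenase and the vesicles were pelleted by ultracentrifugation, so RNA of any cell of the digest can be in a library. The comparison asks how the transcripts of the respiratory chain differ between the libraries labelled IR and those labelled sham. The marker genes go against the cardiac label, so the tissue behind the values is uncertain.

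Oxidative phosphorylation is carried out in the inner mitochondrial membrane, where complexes I, III and IV pump protons while passing electrons to oxygen, complex II feeds in electrons from succinate, and complex V (ATP synthase) uses the proton gradient to make ATP. Mitochondrial DNA encodes the hydrophobic cores of complexes I, III, IV and V, and is transcribed from both strands as long precursors that are cut at the tRNAs. All other subunits, and all of complex II, are encoded in the nucleus. Heart and skeletal muscle use their own isoforms of some complex IV subunits.

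The libraries held 13824442 to 22497260 mRNA fragments, and 12716 mRNAs with a mean of at least 0.5 FPKM (fragments scaled to transcript length and library size) were tested. The tissue label was checked against marker genes. Of 17 genes of contractile cardiomyocytes, 4 (Myl2, Csrp3, Mb and Nppa) had no fragment in any library, Myh6 had 1 fragment in all, and their summed level was 7.86 to 13.5 FPKM in sham and 5.56 to 7.997 FPKM in IR. The 22 enterocyte genes summed to 25156 to 30594 FPKM in sham and 28260 to 40912 FPKM in IR. These levels go against the cardiac label. Of these 22, 8 were higher and 1 lower in IR at an unadjusted p under 0.05, and of 14 lymphocyte genes tested 8 were higher and 0 lower, whereas none of 10 endothelial and fibroblast genes passed either way. Over all mRNAs tested 4.87% were higher and 4.86% lower at that p. The part of these cell types in the results below was not tested. In bulk RNA, fewer cells of a type and less RNA per cell cannot be told apart.

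The mitochondrially encoded members fall into those that have a near-identical copy in the nuclear genome and those that do not, which bears on how their fragments can be assigned. In the GRCm38 genome (mm10), bases 6390 to 11042 of chromosome M align to chromosome 1 from 24611535 to 24616188 on the minus strand, over 4654 columns with 99.936% identity, 2 mismatches and 1 gap base. The stretch holds all of mt-Co2, mt-Atp8, mt-Atp6, mt-Co3 and mt-Nd4l, 99.1% of mt-Nd3, 63.6% of mt-Nd4 and 31.3% of mt-Co1, counting copies of at least 100 bases and 98% identity. mt-Nd1, mt-Nd2, mt-Nd5, mt-Nd6 and mt-Cytb had no such copy. Sequences of both kinds are shown to make the likeness visible. The first bases of mt-Co2 (chrM:7013-7092, plus strand) and their copy (chr1:24615486-24615565, minus strand) carry the same letters:
mt-Co2 start: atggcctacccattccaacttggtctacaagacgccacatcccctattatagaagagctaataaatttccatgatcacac
mt-Co2 start copy: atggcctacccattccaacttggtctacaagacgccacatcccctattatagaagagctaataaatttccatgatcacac
The start of mt-Nd3 with the end of the tRNA gene before it (chrM:9442-9521, plus strand) and its copy (chr1:24613057-24613136, minus strand) hold 1 of the 2 mismatches, T9461C with positions counted from the first base of chromosome M, shown as a capital:
mt-Nd3 difference: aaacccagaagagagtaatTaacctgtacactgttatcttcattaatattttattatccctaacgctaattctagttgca
mt-Nd3 difference copy: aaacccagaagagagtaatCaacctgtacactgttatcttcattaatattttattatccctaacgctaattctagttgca
The first bases of mt-Nd2 (chrM:3914-3993, plus strand) stand for the genes with no copy:
mt-Nd2 start: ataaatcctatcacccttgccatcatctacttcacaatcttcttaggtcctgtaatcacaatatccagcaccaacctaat

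Having any copy did not divide the mitochondrially encoded members by level. mt-Co1 (31.3% copied, 10772 FPKM) and mt-Nd4 (63.6% copied, 1065 FPKM) were among the high ones. A cut at 90% of the length did divide them. The 6 genes with a copy over more than 90% of their length had mean levels of 0 to 100.4 FPKM, and the other 7 had mean levels of 695 to 10772 FPKM, so the ranges did not meet. The same tables list the copy on chromosome 1 as separate entries. The mRNA Gm10222, within the copy, was at 136 to 216 FPKM in sham and 133 to 180.3 FPKM in IR. The lncRNA entry uc007ams.1 was at 101 to 245 FPKM in sham and 108 to 156 FPKM in IR. A lncRNA entry on chromosome M, uc009vfa.1, on the strand of mt-Atp8 to mt-Nd4, is listed with the locus 7765 to 11544. That locus is shared with minus-strand entries, and the transcript itself has 842 bases. Which of these genes it covers is not given. The level of uc009vfa.1 was 35.2 to 83.3 FPKM in sham and 33.3 to 59.4 FPKM in IR. Same-strand lncRNA entries on chromosome M also have loci over genes without a copy. The locus of uc009vew.1 spans mt-Nd1, that of uc009vex.2 mt-Nd2, and that of uc009vfc.1 mt-Nd5 and mt-Cytb. The locus of uc009vey.1 spans mt-Co1. A locus can be longer than a transcript in it: uc009vfc.1 has 2883 bases in the locus 11612 to 15288. How the authors' counting divided fragments between such entries is not given in the sources used here. Levels of the genes with a copy or within the locus of such an entry are therefore uncertain. The part of the copy and of these entries in the results below was not tested.

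Of the catalytic core of complex IV, mt-Co1 was the most abundant mRNA of the table, at 9867, 10387, 12135 and 12740 FPKM in sham 1 to 4 and 10172, 11140, 9683 and 10050 FPKM in IR 1 to 4. The groups overlapped (log2 fold change -0.03, SE 0.19). The other core subunits of complex IV were far lower. mt-Co2, which takes electrons from cytochrome c, was at 51.8 to 95.9 FPKM in sham and 43.9 to 76.5 FPKM in IR, and mt-Co3 at 78.8 to 154 FPKM in sham and 70.2 to 96.5 FPKM in IR. Both lie wholly within the copied stretch.

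Of the complex V members, mt-Atp8 was assigned no fragment in any library. For counting error alone, a count of 0 allows up to 3 fragments in a library. That limit does not cover how fragments were divided between entries. mt-Atp8 and mt-Atp6 lie wholly within the copied stretch and within the locus listed for uc009vfa.1. mt-Atp6, the proton channel subunit, had 0, 29, 165 and 90 fragments in sham 1 to 4 and 0, 0, 11 and 1 fragments in IR 1 to 4. The groups overlapped at 0, since sham 1 had none. The fitted log2 fold change of -4.06 (SE 1.37, edgeR adjusted p = 0.464) rests on these few fragments, and it ran from -6.91 (without IR 3) to -3.34 with single libraries left out.

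The complex I core members split in the same way. mt-Nd1 was at 1717 to 2521 FPKM in sham and 1845 to 2498 FPKM in IR, mt-Nd5 at 536 to 839.6 FPKM and 614 to 927 FPKM. mt-Nd4l was at 43.6 to 53.3 FPKM in sham and 39.6 to 65.2 FPKM in IR, and mt-Nd3, on 16 to 62 fragments, at 4.62 to 12.5 and 5.63 to 8.43 FPKM. These groups overlapped. mt-Nd6, alone of the 13 encoded on the other strand, was at 1005 to 2091 FPKM in sham and 1284 to 1856 FPKM in IR. It lies inside the locus listed for the minus-strand lncRNA entry uc012hdm.1, whose own transcript has 2351 bases. That entry was at 539 to 864 FPKM in sham and 509 to 751 FPKM in IR. mt-Cytb, the core of complex III, was at 1357 to 2218 FPKM in sham and 1679 to 2711 FPKM in IR.

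**Figure D1:**
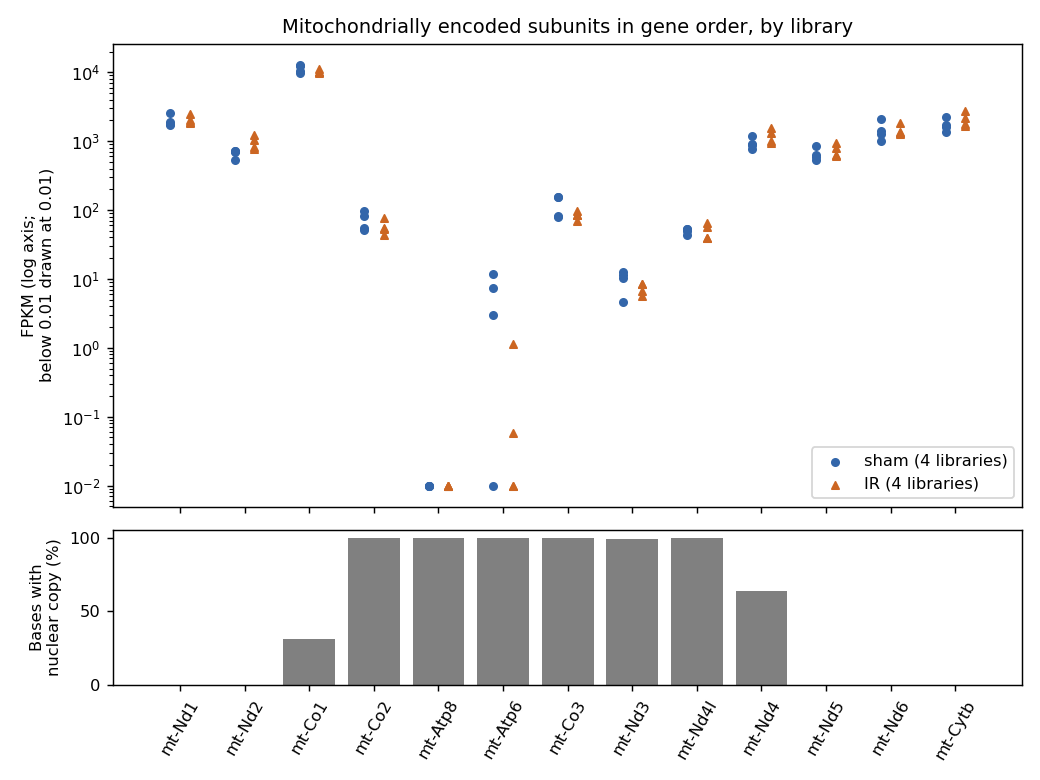
Upper panel: FPKM (log axis) of the 13 mitochondrially encoded members in gene order, 1 point per library (circles sham, triangles IR, 4 each), with values below 0.01 drawn at 0.01. Lower panel: percentage of each gene's bases with a near-identical nuclear copy; the 6 genes at 99.1% to 100% are the 6 lowest in the upper panel.

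mt-Nd2, a core subunit of the proton-pumping arm of complex I without a nuclear copy, was the mitochondrially encoded member with the clearest difference. It was at 719, 700, 532 and 731 FPKM in sham 1 to 4 and at 1214, 1026, 834 and 757 FPKM in IR 1 to 4. All 4 IR values lay above all 4 sham values, although IR 4 was close to sham 4, and on fragments scaled by TMM (the edgeR library scaling) the groups overlapped. The log2 fold change was 0.64 (SE 0.19) with an edgeR adjusted p of 0.455, so it was not called. The same-strand lncRNA entry uc009vex.2, whose listed locus spans mt-Nd2, was at 139 to 268 FPKM in sham and 100 to 264 FPKM in IR. How fragments were divided between mt-Nd2 and this entry is not known, and its part in the difference was not tested.

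mt-Nd4 was at 775, 873, 909 and 1172 FPKM in sham and 1550, 1310, 993 and 939 FPKM in IR, with IR 1 and IR 2 above every sham library and the others within the sham range. Its log2 fold change was 0.47 (SE 0.23, edgeR adjusted p = 0.536). For mt-Cytb it was 0.38 (SE 0.23) and for mt-Nd5 0.30 (SE 0.22), both with overlapping groups. Without IR 1 they were 0.23 and 0.18, and over all libraries left out in turn they ran to 0.55 and 0.48 (both without sham 4). The 7 members under 90% copied had a median log2 fold change of 0.30, with 6 of them positive, and the 5 tested members over 90% copied had a median of -0.30, with 4 negative. With each library left out in turn, the median over all 12 mitochondrially encoded members tested, 0.15, ran from -0.003 (without IR 2) to 0.23 (without IR 4).

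The libraries differed among themselves in the mitochondrially encoded genes more than in the nuclear ones. On TMM-scaled fragments, the median deviation of mt-Nd1, mt-Nd2, mt-Nd4, mt-Nd5 and mt-Cytb from their means was 0.56 in IR 1, 0.37 in IR 2 and 0.22 in sham 4 on the log2 scale. It was -0.40 in sham 1, -0.38 in sham 2, -0.20 in IR 4, -0.15 in sham 3 and -0.08 in IR 3. The nuclear-encoded members deviated by -0.07 to 0.05 in the same libraries. For these 5, the high and the low libraries thus belonged to both groups. The choice left out mt-Co1 and mt-Nd6, and mt-Nd6 was highest in sham 1 (2091 FPKM), the lowest library of the 5. A median of 5 members is also less steady than a median of 79. Within groups, the median over all 12 mitochondrially encoded members tested had an SD between libraries of 0.32. It was 0.05 for the nuclear-encoded members and 0.046 for the 4 of complex II.

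**Figure D2:**
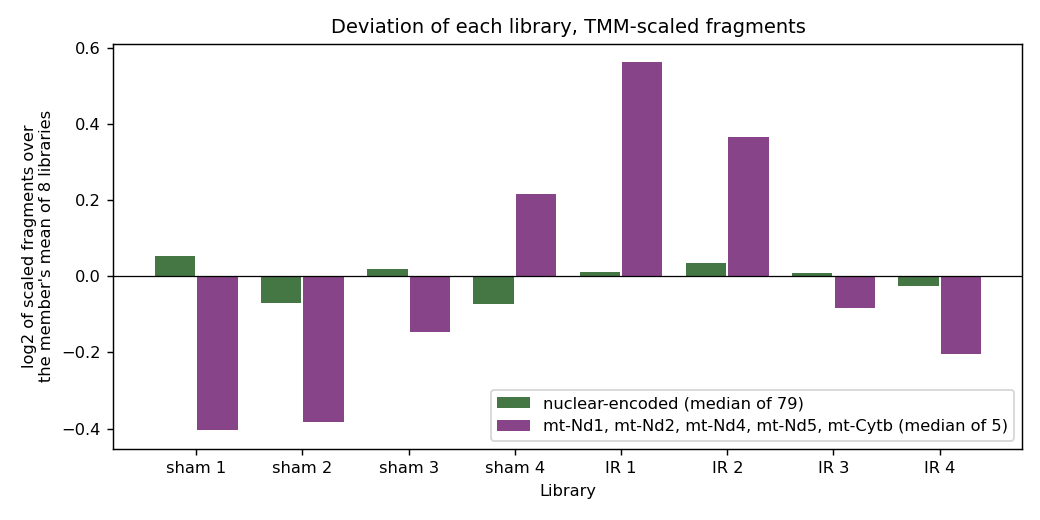
Log2 deviation of each library from the mean of 8 libraries, as the median over the 79 nuclear-encoded members tested and over 5 mitochondrially encoded members (TMM-scaled fragments). The nuclear bars lie between -0.07 and 0.05 and the mitochondrial bars between -0.40 (sham 1) and 0.56 (IR 1).

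As a share of mRNA fragments, the mitochondrially encoded members together held 2.36%, 2.42%, 2.75% and 3.11% in sham 1 to 4 and 2.97%, 2.85%, 2.44% and 2.44% in IR 1 to 4. The nuclear-encoded members held 1.47%, 1.34%, 1.30% and 1.25% in sham and 1.32%, 1.20%, 1.29% and 1.36% in IR. Both shares overlapped between the groups, with means of 2.66% ± 0.35 and 2.67% ± 0.28 (SD, 4 mice each) for the mitochondrially encoded and 1.34% ± 0.094 and 1.29% ± 0.068 for the nuclear-encoded members. The 95% Wilson intervals reach at most 0.009 and 0.006 percentage points to either side and cover counting error only. The ratio of mitochondrially to nuclear-encoded fragments was 2.00 ± 0.39 in sham and 2.08 ± 0.28 in IR, a difference of 0.074 that was -0.059 without sham 1 and 0.24 without sham 4. This ratio is weighted by mt-Co1, which held most of the mitochondrially encoded fragments. Per gene, the median log2 FPKM of the mitochondrially encoded members tested exceeded that of the nuclear-encoded ones by 2.36 ± 0.25 in sham and 2.78 ± 0.26 in IR. The groups overlapped, at 2.21 to 2.74 and 2.52 to 3.07, and this difference was not tested.

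The composition of the mitochondrially encoded fragments differed more. mt-Co1 made up 69.0%, 70.3%, 72.6% and 68.1% of them in sham 1 to 4 and 59.2%, 65.1%, 66.9% and 67.6% in IR 1 to 4, with Wilson half-widths of at most 0.15 points. All IR values lay below all sham values, and the gap between sham 4 and IR 4 was small beside the spread within IR. The ratio of mt-Co1 to mt-Nd2 in FPKM was 13.7 to 22.8 in sham and 8.38 to 13.3 in IR. The ratio of mt-Co1 to mt-Cytb overlapped narrowly, at 5.74 to 7.27 in sham and 3.75 to 5.77 in IR. Of the members in these ratios, only mt-Nd2 had groups that did not overlap in FPKM, and the ratios, chosen after the values were seen, were not tested.

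The nuclear-encoded members differed between complexes in level. Over the 8 libraries, the median of the mean FPKM was 71.1 for the 36 complex I members tested, 221 for the 4 of complex II, 245 for the 8 of complex III, 301 for the 13 of complex IV and 183 for the 18 of complex V. The complex I members ran from 12.04 (Ndufa11) to 255 FPKM (Ndufa4). Complex V held both the most abundant nuclear member, Atp5b (the catalytic beta subunit) at 1237 FPKM, and the least abundant tested, the pseudogene Atp5l-ps1 at 1.20 FPKM. In each library the median of complex I was the lowest of the 5, at 62.3 to 88.9 FPKM against 167 to 327 FPKM for the others.

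Within complexes the most abundant members were as follows. In complex I they were Ndufa4, Ndufb9 at 188 FPKM and Ndufa3 at 180.0 FPKM. In complex II the iron-sulphur subunit Sdhb (251 FPKM), the membrane anchor Sdhd (232 FPKM) and the flavoprotein Sdha (209 FPKM) lay close together, and the other anchor, Sdhc, was lower at 105.3 FPKM. In complex III the hinge protein Uqcrh (303 FPKM), Uqcrb (277 FPKM) and the core protein Uqcrc2 (254 FPKM) led. In complex IV the small subunits Cox6c (530 FPKM as a mean, CV 3.60% over libraries), Cox6b1 (522 FPKM) and Cox8a (518 FPKM) led, and in complex V Atp5a1, the alpha subunit (619 FPKM), and Atp5o, which joins the catalytic head to the stalk (394 FPKM), followed Atp5b.

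The nuclear core of complex I, which takes electrons from NADH and passes them along iron-sulphur clusters, was not uniform. Ndufs1, its largest subunit, was at 69.7 ± 8.78 FPKM in sham and 65.7 ± 6.95 FPKM in IR, and the NADH-binding Ndufv1 at 123 ± 8.25 and 121 ± 1.54 FPKM. Ndufs7 and Ndufs8, which hold the last clusters before the quinone, were at 75.2 ± 10.8 and 39.3 ± 9.53 FPKM in sham and at 66.4 ± 2.50 and 37.8 ± 4.76 FPKM in IR. The groups overlapped for all of these, and each log2 fold change was within 0.1 of 0.

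The catalytic subunits elsewhere were as steady. The Rieske iron-sulphur protein of complex III, Uqcrfs1, was at 164 ± 23.1 FPKM in sham and 149 ± 15.6 FPKM in IR (log2 fold change -0.03, SE 0.10). In the head of ATP synthase, Atp5b was at 1243 ± 62.3 FPKM in sham and 1230.4 ± 79.2 FPKM in IR (log2 fold change 0.07, SE 0.11), Atp5a1 at 639 ± 38.6 and 599 ± 24.6 FPKM, and the central-stalk gamma subunit Atp5c1 at 236 ± 19.2 and 220.5 ± 16.9 FPKM. Their groups overlapped as well. Of the 79 nuclear members tested, 15 have near-identical copies over more than 20% of their transcript, up to 100% for Atp5l-ps1, and their counts are uncertain for that reason. The median log2 fold change was 0.04 for these 15 and 0.02 for the other 64.

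**Figure D3:**
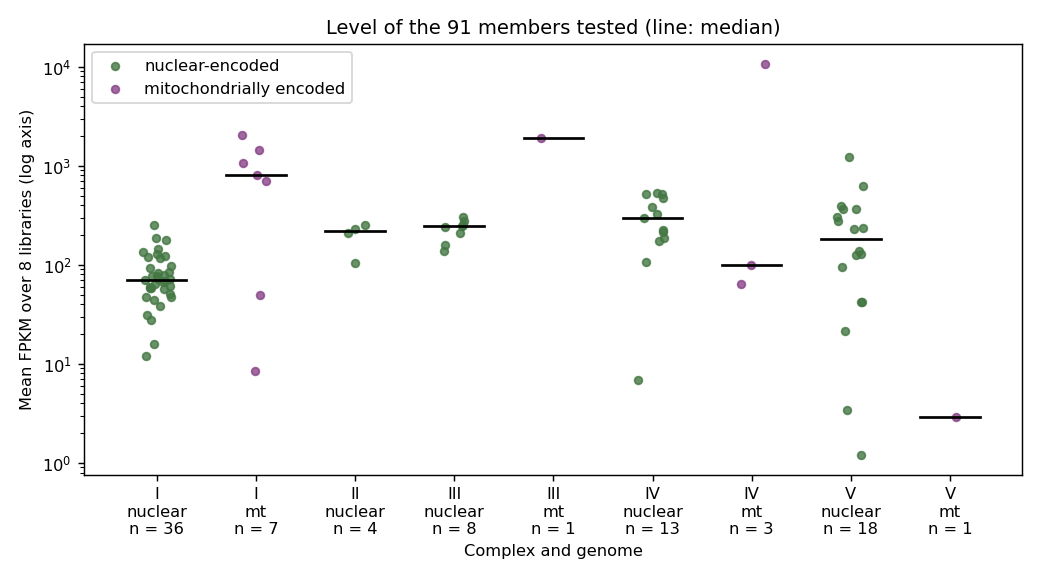
Mean FPKM over 8 libraries (log axis) of the 91 members tested, by complex and genome, with a line at each median. The nuclear medians are 71.1 FPKM for complex I and 183 to 301 FPKM for the others; the mitochondrially encoded points of complexes I and IV spread from 8.48 to 10772 FPKM.

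In IR against sham, none of the 91 members tested was called (edgeR adjusted p under 0.05 and fold over 2), as of all 12716 mRNAs tested 0 (0%) were called. At an unadjusted p under 0.05, 5 members passed (5.49%), against 1237 of all mRNAs (9.73%), so the members were not above the background. Higher were 4 (Cox7a1, mt-Nd2, Atp5sl and Ndufs5, background 4.87%) and lower 1 (mt-Atp6, background 4.86%). DESeq2 called 40 of all mRNAs and no member. Without sham 1 the count at an unadjusted p under 0.05 was 8 and without IR 4 it was 9.

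The nuclear-encoded members hardly moved. Their median log2 fold change was 0.02, with quartiles of -0.05 and 0.09 and a range of -0.31 (Cox7a2l) to 0.53 (Cox7a1), and 72 of 79 lay within 0.25 of 0. Over all mRNAs the median was 0.00, the quartiles were -0.16 and 0.15, and 8846 of 12716 lay within 0.25. The median SE of a nuclear member was 0.10, against 0.17 over all mRNAs. The median coefficient of variation of FPKM over the 8 libraries was 11.5% for nuclear members, 24.4% for mitochondrially encoded members and 19.8% over all mRNAs. The nuclear members were also more abundant, with a median of 124 FPKM against 8.65 FPKM over all mRNAs, and the spread at matched levels was not compared.

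By complex, the median log2 fold change of the nuclear-encoded members was 0.03 for complex I (19 of 36 positive), 0.07 for complex II (3 of 4), -0.03 for complex III (2 of 8), 0.00 for complex IV (6 of 13) and 0.03 for complex V (14 of 18). No complex had a median beyond 0.1. With each library left out in turn the medians ran from -0.007 (without sham 2) to 0.07 for complex I, 0.03 to 0.10 for complex II, -0.07 to 0.008 (without sham 1) for complex III, -0.03 to 0.05 for complex IV and 0.0003 (without sham 4) to 0.06 for complex V, so the direction for complexes I, III and IV changed with single libraries left out. On the FPKM scale, without TMM, the median of all mRNAs fell by 0.10 and that of the nuclear members by 0.08, so all complex medians were negative there and complex IV and the others kept within 0.1 of the median of all mRNAs. Unscaled FPKM differences are therefore read against that shift.

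**Figure D4:**
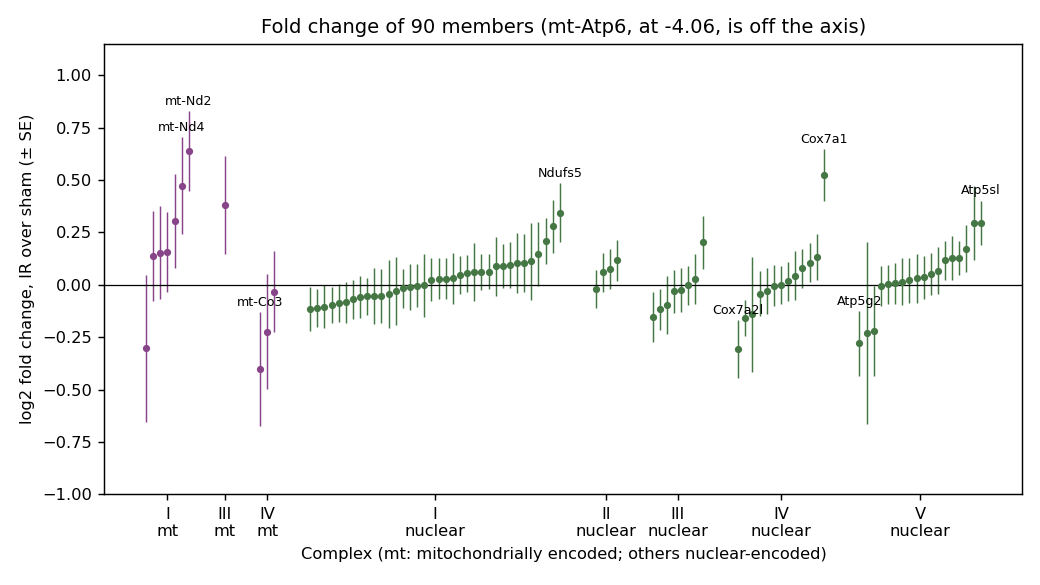
Log2 fold change of IR over sham (points) with its SE (bars) for 90 members, ordered within each complex and genome; mt-Atp6, at -4.06, lies off the axis. Cox7a1 (0.53) and mt-Nd2 (0.64) stand highest, and most nuclear-encoded members lie within 0.25 of 0.

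Cox7a1, the heart and muscle isoform of a small complex IV subunit, had the smallest p of the members. It was at 134, 166, 151 and 150.3 FPKM in sham 1 to 4 and at 179.5, 216, 201 and 198 FPKM in IR 1 to 4. All IR values lay above all sham values, on FPKM and on TMM-scaled fragments. The group means were 150.2 ± 12.97 and 199 ± 15.1 FPKM (SD). The log2 fold change was 0.53 (SE 0.12) with an edgeR adjusted p of 0.455. DESeq2 gave an adjusted p of 0.0434, with a fold still under 2.

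Its partner Cox7a2, the broadly expressed isoform, was at 200.1 to 258 FPKM in sham and 180.0 to 236 FPKM in IR (log2 fold change 0.02, SE 0.09). Cox7a1 thus made up 34.2%, 43.2%, 40.8% and 42.9% of the summed FPKM of the pair in sham 1 to 4 and 46.4%, 54.6%, 48.1% and 45.6% in IR 1 to 4, with no overlap. This share was not tested apart from its members. The summed level of the cardiomyocyte markers was 5.56 to 7.997 FPKM in IR and 7.86 to 13.5 FPKM in sham, and its part in the result was not tested.

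The other muscle isoforms of complex IV were nearly absent. Cox6a2, of heart and skeletal muscle, had 1 to 4 fragments per library, and its share of the Cox6a1 and Cox6a2 pair was at most 0.115%, while Cox6a1 was at 383 ± 22.6 FPKM in sham and 388 ± 21.6 FPKM in IR. Cox8b, likewise of muscle, had 1 fragment in sham 3, 2 in IR 4 and none in the other libraries, against 532 ± 49.2 and 505 ± 53.5 FPKM of Cox8a. No fragment of the testis forms Cox7b2 and Cox8c was found, which is subject to the same limit of 3 fragments. These 4 members were not tested.

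Of the forms restricted by tissue or oxygen, Cox6b2, known from testis, was at 7.44 ± 1.20 FPKM in sham and 6.46 ± 1.87 FPKM in IR, beside Cox6b1 at 543 and 500.5 FPKM. Cox4i2, of lung, had 0 to 6 fragments per library, beside Cox4i1 at 500.2 ± 28.3 and 451 ± 39.1 FPKM. Ndufa4l2, induced by hypoxia in many cells, had 5, 7, 8 and 9 fragments in sham 1 to 4 and 2, 3, 3 and 1 in IR 1 to 4. All IR values were lower, at 0.145, 0.169, 0.208 and 0.072 FPKM against 0.331, 0.464, 0.374 and 0.473 FPKM. It fell below the level required for testing, so the difference has no adjusted p.

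**Figure D5:**
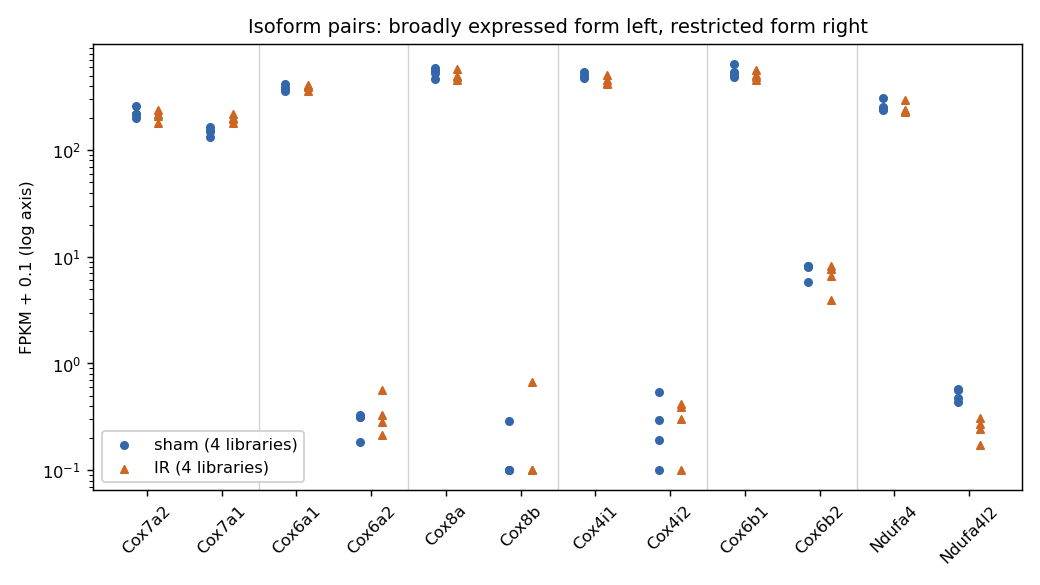
FPKM + 0.1 (log axis) of 6 isoform pairs, the broadly expressed form to the left of the restricted form, 1 point per library (circles sham, triangles IR). Cox7a1 (134 to 216 FPKM) lies near Cox7a2 (180.0 to 258 FPKM), whereas Cox6a2, Cox8b, Cox4i2 and Ndufa4l2 lie below 1 FPKM.

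The remaining nuclear members at an unadjusted p under 0.05 were Ndufs5 and Atp5sl. Ndufs5, a small subunit of the intermembrane arm of complex I, was at 106, 99.98, 74.2 and 70.7 FPKM in sham and 126, 93.0, 115 and 89.9 FPKM in IR. The groups overlapped (log2 fold change 0.35, SE 0.14), and 64.3% of its transcript has a near-identical copy elsewhere in the genome, so its counts are uncertain. Atp5sl was at 22.1, 19.4, 22.1 and 17.8 FPKM in sham and 24.2, 18.2, 22.8 and 26.8 FPKM in IR, also overlapping (log2 fold change 0.30, SE 0.11). Their adjusted p-values from edgeR were 0.492 and 0.471.

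In FPKM, the groups of 4 tested members did not overlap, against 5.25% of all mRNAs: Cox7a1 and mt-Nd2 were above, where 0.873% of all mRNAs were, and Cox7c and Uqcrq were below, where 4.37% were. Cox7c, a small complex IV subunit, was at 408, 344, 348 and 328 FPKM in sham and 306, 272, 290.0 and 314 FPKM in IR. Uqcrq, which binds next to cytochrome b in complex III, was at 306, 239.5, 265.5 and 254 FPKM in sham and 226, 214, 208 and 227 FPKM in IR. On log2(FPKM + 0.1) their differences were -0.27 and -0.28, where the median of all mRNAs was -0.10. On TMM-scaled fragments both overlapped, with log2 fold changes of -0.16 (SE 0.09) and -0.12 (SE 0.10). On that scale 2 members did not overlap, Cox7a1 and Sdha, both above, and 0 were below, where the share over all mRNAs was 5.05% in either direction, 2.35% above and 2.70% below. Sdha, at 208 ± 11.01 and 211 ± 11.4 FPKM, had a log2 fold change of 0.12 (SE 0.10).

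The c-ring of ATP synthase is made of 1 mature protein that 3 genes encode. Atp5g3 gave 67.8% ± 4.23 of their summed FPKM in sham and 68.7% ± 2.25 in IR, at 379 ± 27.8 and 357 ± 34.9 FPKM. Atp5g1 was at 134 ± 32.7 and 126 ± 7.37 FPKM. Atp5g2 was at 48.3 ± 10.2 FPKM in sham and 36.6 ± 6.13 FPKM in IR, overlapping (log2 fold change -0.28, SE 0.15). The order of the 3 genes was the same in both groups.

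Nuclear respiratory factor 1 (NRF1), the ETS factor GABP, YY1 and estrogen-related receptors are known regulators of respiratory genes in the nucleus. RefSeq promoter windows of GRCm38.p6, from 250 bases before to 50 after the start, were matched for 69 nuclear members and searched on both strands, beside 17492 promoters in all. The NRF1 core GCGCATGCG occurred in 8 member windows (11.6%) and in 2.41% of all. The YY1 site AAGATGGCG occurred in 7 (10.1%) and in 1.94%, the ETS site CCGGAAGT in 5 (7.25%) and in 5.29%, and the receptor site TCAAGGTCA in 2 (2.90%) and in 0.332%. The cAMP site TGACGTCA was in 4 (5.80%) and in 2.34%, and the E-box CAGCTG in 6 (8.70%) and in 15.1%. The consensus of MEF2, a muscle factor, was in 0 member windows and in 2.92% of all. A match describes letters only. The NRF1 and MEF2 letters were changed after a first search, so their shares are no independent support. In the member windows no match of one motif overlapped a match of another.

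The members with an NRF1 match did not share a direction. Their log2 fold changes were 0.29 for Atp5k, 0.17 for Atp5l, 0.13 for Cox6a1, 0.00 for Uqcrc1, -0.08 for Ndufa8, -0.10 for Ndufa11, -0.10 for Uqcr11 and -0.28 for Atp5g2. Both ends of this range are shown with the match in capitals and the bases around it, Atp5k at chr5:108434415-108434474 (minus strand) and Atp5g2 at chr15:102671055-102671114 (minus strand), with Cox6a1 at chr5:115349086-115349145 (minus strand) between them:
Atp5k NRF1: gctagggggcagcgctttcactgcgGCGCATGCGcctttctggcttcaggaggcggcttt
Cox6a1 NRF1: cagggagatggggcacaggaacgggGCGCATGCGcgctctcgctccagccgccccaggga
Atp5g2 NRF1: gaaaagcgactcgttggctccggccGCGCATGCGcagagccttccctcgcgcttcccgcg

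The genes that act around the complexes were read from the same fit. None was called. Of 12 nuclear regulators tested, 0 were higher and 2 lower at an unadjusted p under 0.05, against 4.86% lower over all mRNAs. Gabpa, the DNA-binding subunit of GABP, was at 22.2 ± 3.50 FPKM in sham and 17.98 ± 3.02 FPKM in IR (log2 fold change -0.37, SE 0.10, edgeR adjusted p = 0.455). Pprc1, a coactivator of the same family as PGC-1alpha, was at 8.65 ± 1.79 and 5.55 ± 1.70 FPKM (log2 fold change -0.53, SE 0.14, edgeR adjusted p = 0.455). Ppara, a receptor that governs fatty acid oxidation genes, was at 16.97 ± 4.11 and 11.8 ± 3.43 FPKM (log2 fold change -0.46, SE 0.21).

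Of 28 genes of mitochondrial DNA maintenance and expression tested, 0 were higher and 5 lower at an unadjusted p under 0.05, against 4.87% higher and 4.86% lower over all mRNAs. Tfam, which packages and transcribes mitochondrial DNA, was at 21.4 ± 1.31 FPKM in sham and 15.5 ± 2.07 FPKM in IR. All its IR values in FPKM (13.6 to 18.3 FPKM) lay below all sham values (19.98 to 22.8 FPKM), as for 4.37% of all mRNAs. Overlap on TMM-scaled fragments was not checked for Tfam. Its log2 fold change was -0.28 (SE 0.11, edgeR adjusted p = 0.486). Tfb2m, a transcription factor of the mitochondrial promoters, was at 7.08 ± 1.19 and 5.26 ± 1.45 FPKM (log2 fold change -0.37, SE 0.13), and Fastkd3, which acts on mitochondrial mRNAs, at 1.60 ± 0.60 and 0.852 ± 0.17 FPKM (log2 fold change -0.79, SE 0.31). The median log2 fold change of the list was -0.14.

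Of 42 assembly factors tested, 1 was higher (Cox17, which carries copper to complex IV, log2 fold change 0.27, SE 0.11) and 1 lower (Surf1, an assembly factor of complex IV, log2 fold change -0.30, SE 0.10), with a median of -0.06, where 4.87% of all mRNAs were higher and 4.86% lower at that p. Surf1 was at 24.8 ± 1.01 FPKM in sham and 20.4 ± 1.62 FPKM in IR. Against the same shares, of 18 tricarboxylic acid cycle genes 0 were higher and 2 lower, with a median of 0.01: Idh2, at 32.2 ± 8.55 and 22.7 ± 2.59 FPKM, and Suclg2, at 35.2 ± 2.52 and 26.4 ± 6.16 FPKM. Of 7 subunits and partners that the symbols leave out, 1 was higher (again beside 4.87%), the ATP synthase inhibitor Atpif1, at 267 ± 17.3 FPKM in sham and 307 ± 45.8 FPKM in IR (log2 fold change 0.31, SE 0.13). Cycs, the electron carrier cytochrome c, was at 129 ± 17.3 and 140 ± 13.6 FPKM (log2 fold change 0.23, SE 0.11).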

How the data were processed

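RNA of cardiac EVs was sequenced by the authors as stranded, rRNA-depleted paired-end libraries, trimmed with cutadapt 1.9.3, aligned to mm10 with HISAT2 and quantified with Cuffdiff; the other versions, the annotation, the strand setting and the handling of multiply aligned reads are not given in the sources used here. The authors deposited an FPKM and an estimated count per gene and library, the count already multiplied by 1 factor per library. Here each count was divided by the most frequent value of its library (0.763 to 1.18), taken as 1 fragment, and rounded. Of the mRNA values above 0 and under an upper limit, 91.1% to 91.5% lay within 0.02 of a whole number. Larger values, such as those of mt-Co1 and Atp5b, were left out of this check. Entries of 1 symbol with different values were summed (70 symbols), and 1 emptied entry was left out.

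The 2 groups were tested against each other in R 4.3.3 by edgeR 4.0.16, two-sided, with its robust quasi-likelihood test and TMM scaling. The filter on low values was 0.5 FPKM as a mean, which kept 12716 mRNAs, and p-values were adjusted over all of them after Benjamini and Hochberg. An mRNA was called if its fold exceeded 2 and its adjusted p was below 0.05. The labels do not say more of the replicates than 1 mouse each. The biological coefficient of variation was 22%. Standard errors are the log2 fold change divided by the root of F. Scripts were tested on simulated data. The members and lists were chosen with earlier results of these data known. Single members were named by a rule: all mitochondrially encoded ones, the 3 most abundant nuclear ones per complex, those with the smallest p, those whose groups did not overlap, and isoform partners; of other lists, up to 3 with the smallest p. Other members were named after their values were seen. Members not named enter only the counts, ranges and medians.

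Alternatives were median-ratio scaling, scaling without mitochondrial mRNAs, no filter, DESeq2 1.42.0, limma 3.58.1 on log2(FPKM + 0.1) and log2(FPKM + 1), a replicate block, and each library left out. Copies were found with blastn 2.17.0 on GRCm38, and sequences were cut with samtools 1.23.1 or taken from RefSeq (GRCm38.p6). The NRF1 and MEF2 letters were changed after a first search. Plots used Python 3.11.15 and matplotlib 3.10.9.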

Additional observations from a re-analysis of the deposited data

Results flagged for a closer look

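Within each group of 4 libraries, 100 groups of values of named members were checked for a library far from the other 3, and 10 were flagged (10% of them, where chance flags about 5%). Among the mitochondrially encoded members, IR 3 stood out for mt-Atp6 at 1.14 FPKM, where the other IR libraries, with 0 or 1 fragment, were at 0.000442 to 0.0573 FPKM, sham 3 for mt-Nd2 at 532 FPKM below 699.8 to 730.5 FPKM, and IR 2 for mt-Nd6 at 1856 FPKM above 1284 to 1340 FPKM. Without sham 3, mt-Nd2 still differed in the same direction.

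Among nuclear-encoded members of normal abundance, IR 2 was low for Ndufa3, at 157 FPKM against 180.7 to 185 FPKM, and sham 1 was high for Cox7b, at 327 FPKM against 299.9 to 303 FPKM. Sham 2 was low for Cox6b2, at 5.65 FPKM against 7.88 to 8.11 FPKM. IR 1 had the lowest share of Atp5g3 in the c-ring genes, 65.3% against 69.7% to 69.9%. The rest are values of 1 to 3 fragments: Cox6a2 in sham 4 (0.0846 FPKM, others 0.214 to 0.226 FPKM), Cox8b in sham 3 (0.187 FPKM, others 0) and Cox8b in IR 4 (0.568 FPKM, others 0).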

How the results depend on the processing

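The count of called members was 0 under all 15 alternatives. For all mRNAs, DESeq2 called 40, and the counts with each library left out ran from 0 to 4 (without sham 2 it was 4). Members at an unadjusted p under 0.05 numbered 4 to 9 with each library left out. limma on log2(FPKM + 0.1) and on log2(FPKM + 1), which have no TMM scaling, moved the nuclear median from 0.02 to -0.0827 and -0.0824, complex I to -0.0825 and -0.0818, complex II to -0.0342 and -0.0340, complex III to -0.142 and -0.142, complex IV to -0.0920 and -0.0916 and complex V to -0.0716 and -0.0713, together with the median of all mRNAs. The mitochondrially encoded median went from 0.15 to 0.0089 and 0.0093. The number of members whose groups do not overlap was 4 in FPKM and 2 on TMM-scaled fragments. The difference (IR minus sham) in the ratio of mitochondrially to nuclear-encoded fragments, 0.074 on a linear scale, ran from -0.059 to 0.24 with each library left out, reversing without sham 1 and without IR 2 (-0.026). On another scale, the difference of median log2 FPKM was 0.42. Each set beside the spread between libraries on its own scale, the 2 values differed, so this result depends on the measure. The share of mitochondrially encoded fragments, higher by 0.015 points in IR, ran from -0.086 to 0.17. Of 12 members followed one by one, all 180 alternatives kept the direction, and only Cox7a1 under DESeq2 passed an adjusted p of 0.05 (0.0434). Most of these 12 have a small p or groups that did not overlap in these data, and each alternative refits the same libraries. The kept direction is therefore no independent support. Left out in turn, libraries gave log2 fold changes of 0.44 to 0.57 for Cox7a1 and 0.50 to 0.77 for mt-Nd2.

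The labels do not say whether the replicate numbers pair mice. Same-numbered libraries had correlations of -0.17, -0.35, 0.01 and 0.05 between their deviations, which cannot show whether they share a batch. With the replicate block, 0 mRNAs and 0 members were called, 6 members had an unadjusted p under 0.05, and the median log2 fold change was 0.13 for mitochondrially and 0.02 for nuclear-encoded members. mt-Atp8, mt-Atp6, mt-Nd3 and the restricted isoforms rest on few or no fragments, and the cause was not tested.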
